A study of Mus musculus with 10 samples.

Results

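The 10 genes described here encode transcription factors that govern the development and function of lymphocytes: Runx3, Tbx21, Bcl11b, Ikzf1, Ikzf3, Ets1, Tcf7, Satb1, Tox and Zfp683. They were taken by gene symbol, and each matched 1 of the 24839 rows of an expression table of mouse small-intestinal epithelial cells. The table held 10 messenger RNA libraries, 5 titled HCD and 5 titled NCD. HCD stands for a high cellulose diet, per the title of the series, and the labels do not spell out NCD. In the described design each diet lasted 60 days and was given with or without ovalbumin (OVA, the egg white protein used to provoke food allergy). OVA groups were injected into the peritoneum on days 0 and 14 with 50 µg of OVA and 1 mg of alum, and later took 5 oral doses of 50 mg of OVA, while the other groups received saline. The treatment label reads OVA for all 5 HCD libraries and untreated for all 5 NCD libraries, so the contribution of the diet and that of OVA cannot be told apart. Library numbers also follow the groups, 11, 12, 13, 19 and 20 in HCD and 1, 2, 3, 9 and 10 in NCD, so a difference in handling cannot be told apart either. The sources used here give no strain, age or sex of the mice, and nothing says whether each library came from its own animal.

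The gut epithelium is not made of epithelial cells alone. Intraepithelial lymphocytes, most of them T cells with a CD8 co-receptor, sit between the enterocytes and come along when epithelium is isolated. Runx3 and T-bet (the product of Tbx21) direct the cytotoxic programme and residence of these cells. The Ikaros family, Ets1, TCF-1 (the product of Tcf7), Bcl11b, Satb1 and Tox act from the thymus onwards, where they set and hold T cell identity. Hobit, the product of Zfp683, maintains tissue-resident lymphocytes in the mouse.

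Factors of this set bind short DNA motifs, and several act on each other's promoters. RefSeq promoter windows (GRCm38.p6) were at hand for 6 of the 10 genes, Runx3 with a distal and a proximal window. The 250 bases upstream of Tbx21 (chr11:97115332-97115581, minus strand) and of the distal start of Runx3 (chr4:135120395-135120644, plus strand) are shown because these genes carry the cytotoxic part of the set. Capitals mark matches on either strand to a RUNX motif (TGTGGT), an ETS motif (GGAAGT) or an Ikaros motif (TGGGAA).
Tbx21: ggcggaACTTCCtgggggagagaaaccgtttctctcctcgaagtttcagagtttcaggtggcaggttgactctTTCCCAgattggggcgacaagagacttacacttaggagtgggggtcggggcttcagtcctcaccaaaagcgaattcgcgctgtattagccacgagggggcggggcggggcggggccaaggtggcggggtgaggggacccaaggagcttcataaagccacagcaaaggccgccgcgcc
Runx3 distal: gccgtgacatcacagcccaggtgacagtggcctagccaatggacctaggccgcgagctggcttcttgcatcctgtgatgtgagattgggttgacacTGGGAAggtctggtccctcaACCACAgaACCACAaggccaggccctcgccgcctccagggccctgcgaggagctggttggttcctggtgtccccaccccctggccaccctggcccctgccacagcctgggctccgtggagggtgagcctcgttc
The Tbx21 window held 1 ETS match and 1 Ikaros match, and the distal Runx3 window held 2 RUNX matches and 1 Ikaros match. Of the 13 windows of these 6 genes 6 held a match to any of the motifs, and the proximal Runx3 window and both Ikzf1 windows held none. Neither printed window held a T-box motif (GGTGTGA) or a TCF motif (CTTTGAT). Of all 32851 promoter windows of this length, 14% held the RUNX, 19.7% the ETS, 21.6% the Ikaros, 3.33% the T-box and 3.21% the TCF motif. The share of all windows with any of these motifs was not counted, so 6 of 13 cannot be called many or few. A match is a run of letters, and binding was not measured.

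Expression was deposited as FPKM, mapped fragments scaled by transcript length and by the size of the library. This permits a rough comparison of levels between genes, while a comparison between libraries also depends on what else each library holds. The depth of each library is unknown. FPKM are shares of a library, and the 13 mitochondrially encoded genes took 14.8% to 29.5% of summed FPKM in HCD libraries and 3.23% to 5.76% in NCD libraries. Differences below are HCD minus NCD in log2(FPKM + 1), tested with limma over the 10321 genes whose mean reached 1 FPKM. Of these, 736 were higher in HCD (7.13%) and 1982 lower (19.2%) at a Benjamini-Hochberg adjusted p below 0.05, and 1318 were lower without NCD replicate 1. The median difference of all tested genes was −0.19. When the mitochondrial genes were removed and the rest rescaled, that median was 0.02, with 1107 genes higher (10.4%) and 571 lower (5.37%). With quantile normalization 934 were higher (9.05%) and 885 lower (8.57%). In these bulk libraries, fewer cells of a type and less RNA per cell cannot be told apart.

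Of the 10 factors, 8 passed the filter on low values. Tbx21, Runx3, Ikzf1, Ikzf3, Ets1 and Tcf7 were higher in HCD by 2.35-fold to 4.33-fold, none was lower, and Bcl11b and Tox did not pass the test. The same 6 were higher without the mitochondrial genes, under quantile normalization and without any 1 library. The median difference of the 8 tested factors was 1.26. In every HCD library these 6 genes lay above every NCD library, a separation found in 4.53% of all tested genes. None of the tested factors lay wholly below, as 12.9% of tested genes did. Satb1, under the filter, was apart in the same way, and the share among genes under the filter was not counted. Summed over the 10 factors, HCD libraries held 64.6 to 77.4 FPKM and NCD libraries 18.7 to 38.0 FPKM.

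**Figure D1:**
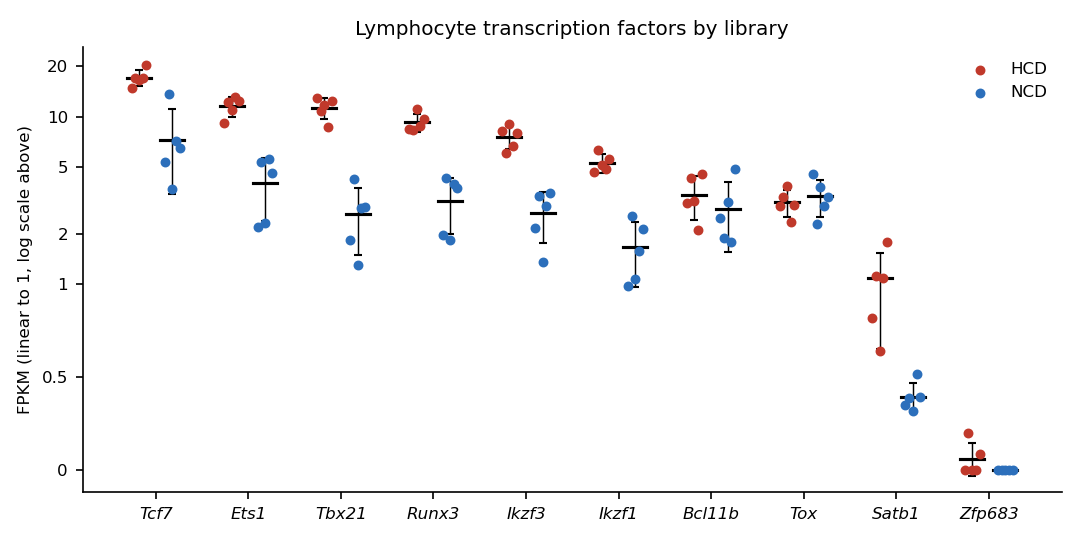
FPKM of the 10 lymphocyte transcription factors in each library, HCD (red) left of NCD (blue), on an axis that is linear up to 1 FPKM and logarithmic above. Each point is 1 library, with the group mean as a thick bar and the SD as a thin one (n = 5 each), and the groups are apart for 7 genes and overlap for Bcl11b, Tox and Zfp683.

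Tbx21 (chromosome 11, 97098071 to 97115331, minus strand, GRCm38) encodes T-bet, the T-box factor that drives interferon gamma and the cytotoxic state in CD8 T cells and natural killer cells. It had 12.96, 10.8, 11.7, 8.72 and 12.3 FPKM in HCD replicates 1 to 5, against 1.83, 4.22, 1.29, 2.84 and 2.87 FPKM in NCD replicates 1 to 5. The lowest HCD library thus stood well above the highest NCD library. The means were 11.3 ± 1.65 FPKM in HCD and 2.61 ± 1.12 FPKM in NCD (SD, n = 5 each), 4.33-fold, the widest gap of the set. The difference was 1.82 ± 0.22 (SE), with an adjusted p of 0.000172.

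Runx3 (chromosome 4, 135120652 to 135177990, plus strand) encodes the Runt factor that silences Cd4 and activates Itgae in CD8 T cells. Its levels were 8.47, 8.31, 11.1, 8.77 and 9.68 FPKM in HCD libraries, against 1.96, 4.27, 1.82, 3.96 and 3.74 FPKM in NCD libraries. All HCD values lay close together, and NCD replicates 1 and 3 were the lowest. The means were 9.26 ± 1.14 FPKM in HCD and 3.15 ± 1.17 FPKM in NCD, 2.94-fold, with a difference of 1.35 ± 0.21 (adjusted p = 0.000751).

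Both Ikaros family members rose to a like extent. Ikzf1 (chromosome 11, 11685003 to 11772926, plus strand) encodes Ikaros, a zinc finger factor of all lymphoid lineages. It had 4.65, 6.33, 5.10, 4.85 and 5.54 FPKM in HCD libraries, against 0.988, 2.56, 1.06, 1.57 and 2.13 FPKM in NCD libraries. That is 3.18-fold on the means of 5.29 ± 0.666 FPKM in HCD and 1.66 ± 0.678 FPKM in NCD, with a difference of 1.27 ± 0.20 (adjusted p = 0.000816). Ikzf3 (chromosome 11, 98464902 to 98546031, minus strand) encodes Aiolos, the partner of Ikaros in mature lymphocytes. It had 8.24, 6.02, 9.01, 6.68 and 7.94 FPKM in HCD libraries, against 2.15, 3.37, 1.36, 2.92 and 3.48 FPKM in NCD libraries. Its means were 7.58 ± 1.21 FPKM in HCD and 2.66 ± 0.893 FPKM in NCD, 2.85-fold, with a difference of 1.26 ± 0.21 (adjusted p = 0.00105). Neither gene overlapped between the groups. The ratio of Ikzf3 to Ikzf1 did overlap, at 0.951 to 1.77 in HCD libraries and 1.28 to 2.18 in NCD libraries.

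Tcf7 and Ets1 had the highest mean FPKM of the set in both groups. Single libraries differed, with Tbx21 above Ets1 in HCD replicate 1 (12.96 against 9.09 FPKM). Tox, at 3.77 FPKM, was above both Tcf7 and Ets1 in NCD replicate 3. Ets1 (chromosome 9, 32636221 to 32757820, plus strand) encodes the founding ETS factor, required for normal numbers and survival of T cells. It had 9.09, 12.3, 10.9, 13.1 and 12.3 FPKM in HCD libraries, against 2.18, 5.38, 2.32, 5.55 and 4.63 FPKM in NCD libraries. The means were 11.5 ± 1.59 FPKM in HCD and 4.01 ± 1.65 FPKM in NCD, 2.88-fold, with a difference of 1.38 ± 0.23 (adjusted p = 0.0011). NCD replicates 1 and 3 were again the lowest. Tcf7 (chromosome 11, 52252371 to 52283014, minus strand) encodes TCF-1, the nuclear end of Wnt signalling in T cells and a mark of naive and memory-like cells. It had 14.8, 16.98, 16.5, 16.9 and 20.2 FPKM in HCD libraries, against 5.34, 13.7, 3.67, 7.19 and 6.49 FPKM in NCD libraries. NCD replicate 2 came close to the lowest HCD library. The means were 17.1 ± 1.95 FPKM in HCD and 7.27 ± 3.81 FPKM in NCD, 2.35-fold, with a difference of 1.23 ± 0.24 (adjusted p = 0.00331), and of 1.46 without NCD replicate 2.

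Bcl11b and Tox did not pass the test. Bcl11b (chromosome 12, 107910403 to 108003602, minus strand) encodes the zinc finger factor that commits thymic progenitors to the T lineage. It had 3.03, 4.29, 3.13, 2.09 and 4.53 FPKM in HCD libraries, against 2.47, 1.87, 3.08, 1.79 and 4.86 FPKM in NCD libraries. The highest value of all was in NCD replicate 5 and the groups overlapped, with means of 3.41 ± 0.999 FPKM in HCD and 2.81 ± 1.26 FPKM in NCD. The difference was 0.24 ± 0.24 (95% interval −0.28 to 0.75, adjusted p = 0.496). Tox (chromosome 4, 6686353 to 6991557, minus strand) encodes an HMG box factor needed for CD4 T cell development and prominent in chronically stimulated CD8 T cells. Its levels were 2.93, 3.30, 3.84, 2.34 and 2.96 FPKM in HCD libraries, against 4.51, 2.28, 3.77, 2.92 and 3.29 FPKM in NCD libraries, and the ranges lay almost on top of each other. The means were 3.07 ± 0.549 FPKM in HCD and 3.35 ± 0.848 FPKM in NCD. The difference was −0.08 ± 0.19 (95% interval −0.49 to 0.32, adjusted p = 0.773), and 0.11 with the mitochondrial genes left out.

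Satb1 and Zfp683 fell under the filter. Satb1 (chromosome 17, 51736187 to 51833290, minus strand) encodes a factor that folds chromatin in thymocytes. It had 0.819, 1.11, 0.641, 1.09 and 1.79 FPKM in HCD libraries, against 0.351, 0.388, 0.315, 0.516 and 0.394 FPKM in NCD libraries. Every HCD library was above every NCD library, with means of 1.09 ± 0.438 FPKM in HCD and 0.393 ± 0.0758 FPKM in NCD. With the filter at 0.1 FPKM, under which 5.84% of genes were higher and 12.2% lower, the difference was 0.56 ± 0.16 (adjusted p = 0.0269). Zfp683 (chromosome 4, 134053838 to 134058996, plus strand) was listed at 0 in all NCD libraries and in HCD replicates 1, 3 and 4. The other two HCD libraries had 0.202 and 0.0867 FPKM, too little for a comparison.

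**Figure D2:**
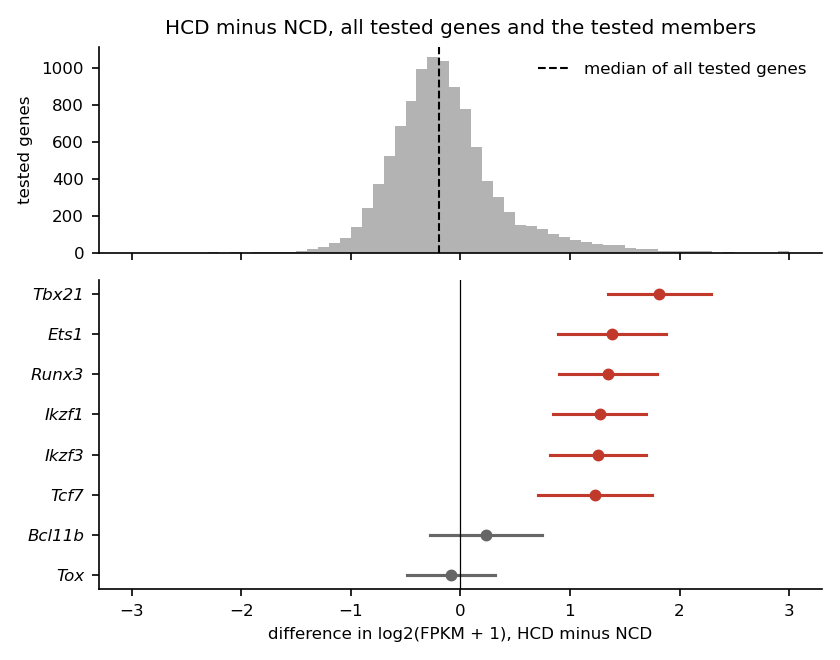
Differences between HCD and NCD in log2(FPKM + 1), for all 10321 tested genes as a histogram (top) and for the 8 tested factors with 95% intervals (bottom). The intervals of 6 factors (red) lie well to the right of the median of all genes (dashed, −0.19), and those of Bcl11b and Tox (grey) span 0.

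In HCD libraries the order of mean FPKM was Tcf7, Ets1, Tbx21, Runx3, Ikzf3, Ikzf1, Bcl11b, Tox, Satb1 and Zfp683. The ranges of neighbours in this order overlapped, except those of Tcf7 and Ets1, Ikzf1 and Bcl11b, Tox and Satb1, and Satb1 and Zfp683. In NCD libraries the order was Tcf7, Ets1, Tox, Runx3, Bcl11b, Ikzf3, Tbx21, Ikzf1, Satb1 and Zfp683. The ranges of the first 8 overlapped from each to the next there, and Satb1 and Zfp683 were each set apart below. Tbx21 thus stood in position 3 in HCD and position 7 in NCD. The ratio of Tbx21 to Tox was 3.04 to 4.42 in HCD libraries and 0.342 to 1.85 in NCD libraries, without overlap. For Tbx21 over Bcl11b it was 2.53 to 4.28 in HCD libraries and 0.418 to 2.25 in NCD libraries. For Tbx21 over Tcf7 it was 0.516 to 0.877 in HCD libraries and 0.309 to 0.442 in NCD libraries. Tbx21 had the largest difference of the tested factors, and Tox, Bcl11b and Tcf7 had the smallest, so these ratios largely restate those differences. Ratios of Tbx21 to Runx3, Ets1, Ikzf1 and Ikzf3 were not taken. The share of all gene pairs separated in this way was not counted.

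The library numbers are consecutive for replicates 1 to 3 and again for replicates 4 and 5, and their meaning is not stated. Among replicates 1 to 3 the differences were 1.98 for Tbx21, 1.53 for Runx3, 1.52 for Ets1, 1.44 for Ikzf3, 1.37 for Ikzf1 and 1.17 for Tcf7. Of these 5 passed (4.01% of all genes were higher and 9.8% lower) and Tcf7 did not (adjusted p = 0.0599). Among replicates 4 and 5 they were 1.56 for Tbx21, 1.31 for Tcf7, 1.18 for Ets1, 1.13 for Ikzf1, 1.07 for Runx3 and 0.98 for Ikzf3. None passed with 2 libraries a group (adjusted p 0.0582 to 0.166), where 0.514% of all genes were higher and 0.136% lower. Bcl11b differed by 0.37 among replicates 1 to 3 and 0.03 among replicates 4 and 5, and Tox by −0.03 among replicates 1 to 3 and −0.17 among replicates 4 and 5.

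Genes of the same families were set beside the 10 factors: 21 relatives, of which 14 were tested, 2 were higher and 3 lower (median difference 0.19), beside 7.13% higher and 19.2% lower among all tested genes. With the mitochondrial genes left out, or under quantile normalization, 2 were higher and 1 lower. In the Runt family Runx2, best known from bone, rose to 1.62 ± 0.404 FPKM in HCD against 0.538 ± 0.362 FPKM in NCD (0.79 ± 0.20, adjusted p = 0.013). Runx1, which acts in blood stem cells and CD4 T cells, had 2.95 ± 1.01 FPKM in HCD and 1.86 ± 1.02 FPKM in NCD (0.50 ± 0.25, adjusted p = 0.154). It passed without NCD replicate 2 (0.68, adjusted p = 0.0396). The ratio of Runx3 to Runx1 was 2.44 to 4.21 in HCD libraries and 1.20 to 2.44 in NCD libraries, just short of overlapping. Cbfb, the shared partner of Runt factors, did not pass (0.24 ± 0.21).

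The ETS family held changes in both directions. Fli1, an ETS factor of blood cells and endothelium, rose to 1.83 ± 0.295 FPKM in HCD against 0.533 ± 0.232 FPKM in NCD (0.89 ± 0.18, adjusted p = 0.0035). Ets2, the closest relative of Ets1 and widely expressed, fell to 55.7 ± 9.80 FPKM in HCD against 125 ± 22.9 FPKM in NCD (−1.15 ± 0.16, adjusted p = 0.000321). It was lower with the mitochondrial genes left out as well (−0.91). Ets1 therefore came to 0.194 to 0.228 of the Ets2 level in HCD libraries and to 0.0146 to 0.0554 of it in NCD libraries. Elf1, Elf4 and Gabpa did not pass, with differences of 0.18, 0.20 and −0.18.

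Among the other families, Tcf7l2, the TCF factor of the intestinal epithelium, fell to 4.27 ± 1.29 FPKM in HCD against 6.86 ± 0.979 FPKM in NCD (−0.60 ± 0.19, adjusted p = 0.0344). Bcl11a, the partner gene of Bcl11b in B cells and other lineages, fell to 3.39 ± 0.330 FPKM in HCD against 5.51 ± 1.10 FPKM in NCD (−0.56 ± 0.17, adjusted p = 0.0262). Both calls were lost with the mitochondrial genes left out (adjusted p 0.166 for Tcf7l2 and 0.157 for Bcl11a), under quantile normalization, and on leaving out any 1 of 5 libraries (HCD replicates 1, 3 and 4, NCD replicates 2 and 3), and that of Tcf7l2 also without a filter. They were lost as well among replicates 1 to 3 alone (adjusted p 0.0768 for Tcf7l2 and 0.0648 for Bcl11a) and among replicates 4 and 5 alone. Lef1, which shares targets with TCF-1, had 1.40 ± 1.34 FPKM in HCD and 0.711 ± 0.551 FPKM in NCD (adjusted p = 0.346). Ikzf5 and Tox4 did not pass, with differences of 0.22 for Ikzf5 and −0.27 for Tox4. Under the filter, Eomes, the T-box partner of T-bet, had 0.0451 ± 0.0469 FPKM in HCD and 0.0252 ± 0.0264 FPKM in NCD. Prdm1, which encodes Blimp-1, a relative of Hobit, had 0.964 ± 0.256 FPKM in HCD and 0.387 ± 0.157 FPKM in NCD, and the groups did not overlap. Nor did they for Ikzf2 (0.273 ± 0.158 FPKM in HCD and 0.0426 ± 0.0307 FPKM in NCD) and Tcf7l1 (0.192 ± 0.0418 FPKM in HCD and 0.0716 ± 0.0537 FPKM in NCD). For Eomes, Ikzf4, Tox2 and Tox3 they overlapped. The share of genes under the filter separated in this way was not counted.

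**Figure D3:**
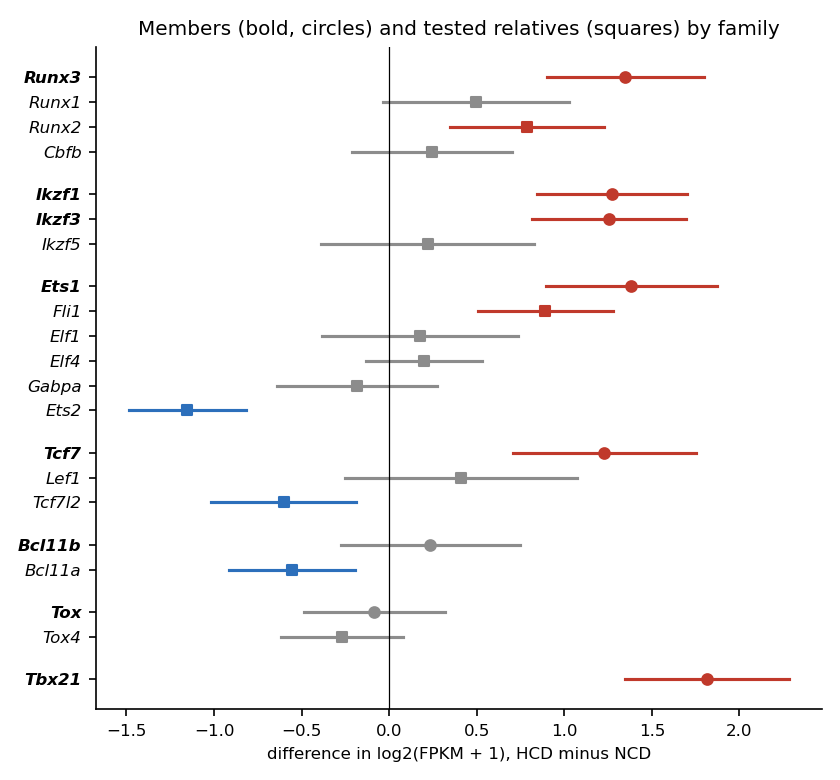
Difference between HCD and NCD in log2(FPKM + 1) with 95% intervals for the tested factors (bold, circles) and tested members of their families (squares), grouped by family. Red marks genes higher in HCD, blue genes lower in HCD and grey genes that did not pass. Runx2 and Fli1 lie right of 0 with Runx3 and Ets1, while Ets2, Tcf7l2 and Bcl11a lie left of it, the last pair without a call once the mitochondrial genes are left out.

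Most of the genes that these factors are known to control were higher as well. Of 16 such targets 13 were tested, 11 were higher and none was lower, with a median difference of 1.61. Among all tested genes 7.13% were higher and 19.2% lower. Whether the factors act on these genes here was not tested. Itgae, the integrin that holds lymphocytes in the epithelium and a target of Runx3, rose to 25.0 ± 2.41 FPKM in HCD against 5.86 ± 1.40 FPKM in NCD (1.94 ± 0.16, adjusted p = 5.2e-05). Gzmb, the cytotoxic protease granzyme B, rose to 169.5 ± 58.2 FPKM in HCD against 32.3 ± 14.8 FPKM in NCD (2.40 ± 0.30). Gzma, which encodes granzyme A, rose to 749.5 ± 311 FPKM in HCD against 139.6 ± 68.7 FPKM in NCD (2.43 ± 0.30). Ccl5, a chemokine of cytotoxic cells, rose to 1104 ± 301 FPKM in HCD against 213 ± 109 FPKM in NCD (2.49 ± 0.31). Cd4, which Runx3 silences, did not pass at 1.83 ± 0.390 FPKM in HCD and 0.957 ± 0.445 FPKM in NCD (0.55 ± 0.20, adjusted p = 0.0565). It passed as higher with the mitochondrial genes left out (0.73, adjusted p = 0.0319) and did not under quantile normalization (0.53, adjusted p = 0.108). Ccr7, a lymph node homing receptor, had 8.38 to 27.8 FPKM in HCD libraries and 3.43 to 58.1 FPKM in NCD libraries (adjusted p = 0.343), the highest of all in NCD replicate 2.

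Not every transcription factor used by lymphocytes was higher. Of 24 further factors 17 were tested, with 6 higher and 3 lower and a median difference of 0.09, beside the same 7.13% and 19.2% of all tested genes. With the mitochondrial genes left out, or under quantile normalization, 6 were higher and 2 lower. Nfatc2, a calcium-driven activator of cytokine genes, rose to 2.10 ± 0.306 FPKM in HCD against 0.707 ± 0.117 FPKM in NCD (0.86 ± 0.16, adjusted p = 0.00261). Gfi1, a repressor in T cells, myeloid cells and secretory epithelium, rose to 5.35 ± 1.01 FPKM in HCD against 2.49 ± 0.751 FPKM in NCD (0.88 ± 0.20, adjusted p = 0.0067). Nfatc1, Batf and Irf4 also rose. Id3, an inhibitor of E proteins, fell to 165 ± 19.4 FPKM in HCD against 303 ± 23.4 FPKM in NCD (−0.88 ± 0.12, adjusted p = 0.000325). Nfil3, a factor of innate lymphoid cells and of the circadian programme in epithelium, fell to 22.6 ± 2.89 FPKM in HCD against 50.2 ± 13.4 FPKM in NCD (−1.08 ± 0.18, adjusted p = 0.00106). Bhlhe40 was the third that fell (−0.57 ± 0.17, adjusted p = 0.0246), and its call was lost with the mitochondrial genes left out (−0.32, adjusted p = 0.189) and under quantile normalization (−0.31, adjusted p = 0.204).

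Markers of T cells rose beside the factors, as did 7.13% of all tested genes. All 4 genes of the T cell receptor complex, Cd3d, Cd3e, Cd3g and Cd247, were higher, by 1.55 to 2.34 in log2(FPKM + 1), and their sum was 200.2 to 354 FPKM in HCD libraries and 31.4 to 79.2 FPKM in NCD libraries. A second fit therefore took each gene relative to the mean of these 4 in the same library, in log2(FPKM + 0.1). In it 0.203% of all tested genes were higher in HCD and 93.7% were lower, so a lower value on this scale is common to most genes. Of the 8 tested factors none was higher and 2 were lower, Tox by 2.24 (adjusted p = 4.8e-05, 95% interval −3.28 to −1.20) and Bcl11b by 1.82 (adjusted p = 0.000993, 95% interval −2.88 to −0.76). Both were also lower within replicates 1 to 3 (−2.54 for Tox and −2.03 for Bcl11b) and within replicates 4 and 5 (−1.79 for Tox and −1.51 for Bcl11b). So were most genes, 9472 of 10307 within replicates 1 to 3 and 8306 of 10305 within replicates 4 and 5. The median difference of all genes was −2.36 over all libraries, −2.81 within replicates 1 to 3 and −1.68 within replicates 4 and 5. The other 6 factors did not pass. Tbx21 differed by 0.03 (95% interval −0.92 to 0.99), Ikzf1 by −0.44 (−1.49 to 0.61), Runx3 by −0.53 (−1.48 to 0.42), Ets1 by −0.54 (−1.47 to 0.40), Ikzf3 by −0.60 (−1.58 to 0.38) and Tcf7 by −0.78 (−1.68 to 0.11). These intervals are wide and do not show that the factors moved in step with the Cd3 genes.

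Expressed as a share of the summed FPKM of these 4 genes, Tox came to 0.828% to 1.65% in HCD libraries and 3.19% to 13.6% in NCD libraries. Bcl11b came to 0.855% to 2.14% in HCD libraries and 2.26% to 9.80% in NCD libraries. Runx3 came to 2.39% to 4.44% in HCD libraries and 4.99% to 6.14% in NCD libraries. For Ets1 the share was 2.57% to 6.13% in HCD libraries and 6.56% to 7.59% in NCD libraries, and for Ikzf3 it was 2.33% to 3.64% in HCD libraries and 3.69% to 6.47% in NCD libraries. In these 5 of the 8 tested factors every HCD library thus lay below every NCD library. The share of all genes separated in this way was not counted. In the fit relative to the Cd3 genes 93.7% of them were lower, so this count does not set the factors apart. Cd3e and Cd3g, at means of 141 and 94.3 FPKM in HCD, made up most of the sum. Ikzf1 overlapped, at 1.31% to 3.16% in HCD libraries and 1.98% to 3.59% in NCD libraries. Tbx21 came to 3.66% to 5.66% in HCD libraries and 3.58% to 5.92% in NCD libraries, almost the same range. Tcf7 came to 4.18% to 9.25% in HCD libraries and 9.07% to 19.2% in NCD libraries, with a slight overlap. Relative to Ptprc and Cd2, further lymphocyte genes, 66.6% of all genes were lower and 0.523% higher. Tox was then the only factor among the 8 that passed (−1.33, adjusted p = 0.046), and Bcl11b did not pass (−0.91, adjusted p = 0.168). A change of reference moves every gene by the same amount, and the median of all genes was −1.45 here and −2.36 relative to the Cd3 genes. Runx3, Ikzf1, Ikzf3, Ets1 and Tcf7 thus turned from negative to positive without passing. Tbx21 moved up by the same amount, so its small difference holds for the Cd3 reference only. Ptprc had 6.52 ± 2.81 FPKM in HCD and 2.06 ± 0.799 FPKM in NCD, and Cd2 had 3.85 ± 0.899 FPKM in HCD and 3.26 ± 3.66 FPKM in NCD, with 9.61 FPKM in NCD replicate 2.

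**Figure D4:**
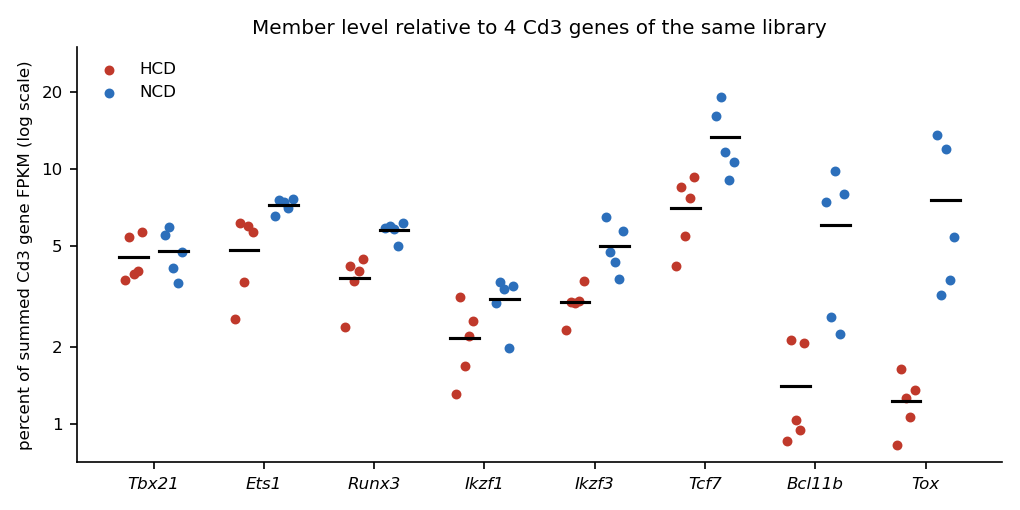
FPKM of each tested factor as a percentage of the summed FPKM of Cd3d, Cd3e, Cd3g and Cd247 in the same library, on a log axis, HCD (red) left of NCD (blue). Points are libraries and bars are group means (n = 5 each). Tbx21 covers the same range in both groups, while all HCD libraries lie below all NCD libraries for 5 factors, Ets1, Runx3, Ikzf3, Bcl11b and Tox. In the fit relative to the Cd3 genes 93.7% of all tested genes were lower in HCD.

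Markers of other cells also differed, and their part in the levels of the factors was not tested. Beside each count below, 7.13% of all tested genes were higher and 19.2% lower. Of 10 epithelial markers 7 were lower and 1, Krt20, was higher, and their sum was 5514 to 7696 FPKM in HCD libraries and 8417 to 9422 FPKM in NCD libraries. With the mitochondrial genes left out 2 were lower and 2 higher, beside 5.37% and 10.4% of all genes. Under quantile normalization 3 were lower and 1 higher, beside 8.57% and 9.05% of all genes. Epcam, the epithelial adhesion molecule, was at 343 ± 67.7 FPKM in HCD and 556 ± 96.4 FPKM in NCD, so the labelled cell type was plainly present in both groups. Of 6 tested B and plasma cell markers 1 was higher, Jchain, with sums of 76.0 to 109.9 FPKM in HCD libraries and 24.8 to 148 FPKM in NCD libraries, the highest again in NCD replicate 2. That library also had the highest NCD level of 4 of the 8 tested factors. Of 10 tested myeloid markers 3 were higher, Itgax, Fcer1g and Tyrobp. The other 7, Lyz2, Csf1r, Cd68, Adgre1, Itgam, Cd14 and Spi1, did not pass. The list had sums of 101 to 317 FPKM in HCD libraries and 42.2 to 133 FPKM in NCD libraries. Tyrobp and Fcer1g, at means of 81.8 and 36.4 FPKM in HCD, held much of the mean HCD sum of 193 FPKM. Of the markers of natural killer and innate lymphoid cells only Klrd1 and Kit were tested. Klrd1, also carried by cytotoxic T cells, was higher (2.10 ± 0.27), while Ncr1 had 0.694 ± 0.468 FPKM in HCD and 0.113 ± 0.218 FPKM in NCD and Klrb1c was listed at 0 in 3 HCD and 4 NCD libraries. All 4 haemoglobin genes were higher, with sums of 96.6 to 391 FPKM in HCD libraries and 15.1 to 41.8 FPKM in NCD libraries. Pecam1 and Vim were higher among 3 tested markers of endothelium and stroma, with sums of 14.7 to 24.1 FPKM in HCD libraries and 8.89 to 12.1 FPKM in NCD libraries. The defining genes Kdr, Cdh5, Col1a1, Col1a2, Col3a1 and Dcn were at or near 0. None of 5 tested mast cell markers passed, with sums of 220.2 to 505 FPKM in HCD libraries and 161 to 789 FPKM in NCD libraries. Avil, the 1 tested tuft cell marker, did not pass either. Trpm5, a tuft cell ion channel under the filter, had 1.35 ± 0.301 FPKM in HCD and 0.457 ± 0.260 FPKM in NCD without overlap, and was tested and higher with the mitochondrial genes left out (0.86, adjusted p = 0.0105). The tuft cell list summed to 2.55 to 3.96 FPKM in HCD libraries and 1.34 to 2.89 FPKM in NCD libraries.

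The genes whose pattern over the 10 libraries was most like that of each factor were found by the mean absolute difference in mean-centred log2(FPKM + 1). For Tbx21 they were Il27ra (0.114), a cytokine receptor, then Rab37 (0.165) and Gimap3 (0.169), a GTPase of lymphocytes. Those of Ets1 included Runx3 (0.138) and Rgs14 (0.140). For Runx3 they were Zdhhc18 (0.118), Akna (0.118) and Rgs14 (0.119). Ikzf3 was nearest to Rassf5 (0.0929), Runx3 (0.125) and Tagap (0.146). Ikzf1 was nearest to Tnfaip3 (0.112), an inhibitor of NF-κB, Prkch (0.125) and Runx3 (0.158). Tcf7 was nearest to Tnfrsf1b (0.109), Gpr132 (0.126) and Rasal3 (0.134). Runx3 thus appears among the nearest genes of Ets1, Ikzf1 and Ikzf3. For Bcl11b they were Fam160b2 (0.135), Wdr20 (0.150) and Myh9 (0.164), and for Tox Tmem110 (0.0989), Gtf2i (0.0997) and Slx1b (0.0999), none of them a factor of the set. Between factors the distance ran between 0.125 for Runx3 with Ikzf3 and 0.955 for Tbx21 with Tox, and Bcl11b and Tox were 0.305 apart. All pairs of the 6 factors that rose lay within 0.299. The distance takes in the difference between the groups, so genes with like differences lie close by construction. These distances therefore do not show a link between the factors beyond that difference. The median distance to all tested genes ran from 0.747 for Ikzf3 to 1.01 for Tbx21 among these 6. It was 0.441 for Bcl11b and 0.319 for Tox.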

How the data were processed

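Messenger RNA of 10 mouse libraries was selected with poly-T beads and sequenced, per the labels' protocols. The authors deposited FPKM values per gene and library. The submitters' processing notes name HISAT2, StringTie, DESeq2, edgeR and the build GRCm38, and give neither versions nor the strand setting. All value columns were used. In 27 rows a symbol turned into a date was restored by its identifier. Runx3, Ikzf1, Ets1, Tcf7, Satb1 and Tox overlap annotated genes on the other strand, whose reads cannot be told apart from theirs without strand. Ikzf3, Tcf7 and Satb1 also overlap annotated genes on their own strand, which a strand setting would not resolve. Coordinates come from GENCODE M21.

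Values were fitted as log2(FPKM + 1) with limma 3.58.1 in R 4.3.3 (lmFit, eBayes with trend), two-sided, for genes whose mean reached 1 FPKM. Benjamini-Hochberg adjustment ran over all of them, with a threshold of 0.05. The fit relative to the Cd3 genes used a pseudocount of 0.1. Fold differences are ratios of mean FPKM, SDs are over 5 libraries, and a difference of log2(FPKM + 1) understates the change of low genes. The fit was tested on simulated data. Nothing says that libraries are separate animals, so p-values measure the spread between these libraries, which may be technical. Replicate numbers did not pair libraries.

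The 10 factors and all gene lists were chosen with earlier results of these data known. All 10 factors and family relatives were named, with up to 4 genes of smallest p from the targets, the further factors and the T cell receptor complex, and the 3 tested genes nearest each tested factor. A few genes that this rule names are not reported here. Cd4, Ccr7, Runx1 without a library, other genes called in short lists and genes named in the marker lists were chosen after their values were seen. Alternatives covered the pseudocount, the filter, the scaling, the variance trend, the replicate block, the runs of library numbers and each library left out.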

Additional observations from a re-analysis of the deposited data

Results flagged for a closer look

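In 3 cases 1 library lay far from the other 4 of its group, by Dixon's criterion at 95%, which chance alone meets in about 1 in 20 groups. Ikzf5 was at 3.48 FPKM in HCD replicate 2. Lef1 was at 3.77 FPKM in HCD replicate 5. Cd3d was at 19.2 FPKM in HCD replicate 1.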

How the results depend on the processing

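The count of 6 higher factors was 7, with Satb1, under a lower filter, no filter or rescaling to a fixed sum (TPM). It was 6 with a pseudocount of 0.1, without the variance trend, with the mitochondrial genes left out, under quantile normalization, with the replicate block and without any 1 library, and was 5 among replicates 1 to 3 and 0 among replicates 4 and 5. Over all genes the higher count was 1107 with the mitochondrial genes left out, 413 among replicates 1 to 3, 53 among replicates 4 and 5, and 556 to 790 without any 1 library. The lower count was 571 with the mitochondrial genes left out, 885 under quantile normalization, 1010 among replicates 1 to 3, 14 among replicates 4 and 5, and 1318 to 2038 without any 1 library. The replicate block gave 673 higher and 1620 lower genes, and Tcf7l2 (adjusted p = 0.0643) and Bcl11a (adjusted p = 0.0654) did not pass in it. Same-numbered libraries did not deviate together (correlations −0.235 to 0.218), and 2 of 5 correlated best with their own number.

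Tox turned to 0.11 with the mitochondrial genes left out and to 0.0063 without NCD replicate 1 (−0.18 to 0.0063 without any 1 library), and Gabpa to 0.016 among replicates 4 and 5. Relative to Ptprc and Cd2 in place of the Cd3 genes, 1 factor was lower. Differences that turned positive were 0.38 for Runx3, 0.47 for Ikzf1, 0.31 for Ikzf3, 0.37 for Ets1 and 0.13 for Tcf7. That of Tbx21, positive with both references, moved up by the same amount. Tbx21 relative to the Cd3 genes was −0.14 with a pseudocount of 1, −0.12 among replicates 1 to 3, and −0.054 to 0.11 without any 1 library. Except where a setting leaves libraries out, the cause was not tested. For the tested factors, 151 further values kept their direction and side of the threshold and 7 lost the call within a run of replicates. Depth is unknown, so low values such as those of Satb1, Zfp683 and Eomes carry an unknown counting error.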
